A study of Arabidopsis thaliana with 9 samples.

Results

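CYP71B genes, which encode cytochrome P450 enzymes, were compared in root tips of the near isogenic line (NIL) 170G-55-16, of Cvi (Cape Verde Islands) and of L*er* (L*er*-2, Landsberg *erecta*) of *Arabidopsis thaliana*. A list of 43 loci of the CYP71A and CYP71B subfamilies was looked up in the annotation of the Affymetrix ATH1 array. Of these, 15 have a probe set of their own, out of 22746 probe sets tested, and all 15 are CYP71B genes. A further 2 CYP71B loci share a probe set that was left out. The other 26 loci, which include all 15 CYP71A loci of the list, have no probe set named in the annotation used here and were not analysed, among them *CYP71A12*, *CYP71A13*, *CYP71A16* and *CYP71B15*. The label of a CYP71A and CYP71B group therefore holds for CYP71B alone.

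Each genotype was represented by 3 arrays, and each array received RNA from a separate pool of about 600 root tips, each of 7 mm. The seedlings were 5 d old, had been stratified for 8 d, and had grown upright for 2 d and on hard agar tilted back by 30° for 3 d. All genotypes had the same medium and light and no further treatment is named. The NIL, also named HGI2.1, is 1 line, and the labels do not say which segments of its genome come from another accession.

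Plant cytochrome P450 enzymes are haem proteins that insert oxygen into small molecules, mostly at the endoplasmic reticulum, with electrons from an NADPH-dependent reductase. The CYP71 family is large and has grown by tandem duplication, so that its genes often lie side by side with similar sequences. A few members have known roles in *Arabidopsis*. CYP71A12, CYP71A13 and CYP71B15 (PAD3) act in the synthesis of camalexin, an indolic phytoalexin, and CYP71B6 turns indole-3-acetonitrile into indole-3-carbaldehyde and indole-3-carboxylic acid. For most CYP71B enzymes a substrate is not given here.

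The deposited value is a linear hybridization signal per probe set, with a median of 109.6 to 122 on the 9 arrays. Differences of the log2 signal were tested with limma in 1 fit to all arrays, in which the genotypes share a common spread per probe set. The word called is used here for an adjusted p (Benjamini-Hochberg, all probe sets) below 0.05. Cvi array 1 stood apart: it correlated with the other Cvi arrays at r = 0.978 and 0.9804, against 0.9969 between these, and lay at least 2-fold from their mean at 4.55% of probe sets. Over all probe sets tested, the NIL arrays were closer to L*er* (r = 0.9942 to 0.9967) than to Cvi (r = 0.9632 to 0.9823, lowest with Cvi array 1). Control probe sets for the 3′ and 5′ ends of transcripts differed between genotypes in part. The actin ratio of 3′ to 5′ signal was 5.6 to 7.9 in the NIL, 2.33 to 4.34 in Cvi and 6.48 to 7.6 in L*er*, and the ubiquitin ratio was 2.13 to 2.5 in the NIL, 3.27 to 4.21 in Cvi and 1.95 to 2.38 in L*er*. The GAPDH ratio was 0.475 to 0.511 in the NIL, 0.43 to 0.514 in Cvi and 0.518 to 0.54 in L*er*. Their part in the results was not tested. Of the marker lists for root tissues, *EXPA7* and *EXPA18*, expansin genes of root hairs, are the only genes named in the annotation used here, and both gave strong signals in every genotype (862 to 1350 and 1190 to 1560). No marker of shoot photosynthesis is named, so a share of other tissue could not be checked.

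Between Cvi and L*er*, 5 of the 15 CYP71B genes were called, against 13.0% of all probe sets. *CYP71B37* and *CYP71B6* were higher in Cvi (2 of 15, against 5.75% of all probe sets), and *CYP71B34*, *CYP71B28* and *CYP71B29* were lower (3 of 15, against 7.27%). At a fold of at least 2 the count was 3 (*CYP71B34*, *CYP71B37* and *CYP71B6*), against 3.88% of all probe sets. Without Cvi replicate 1, *CYP71B6* was still called, at a log2 difference of 0.86, which is below 2-fold. The median difference of the 15 genes was 0.01 on the log2 scale, as was that of all probe sets. Between the NIL and L*er*, 1 of the 15 was called (*CYP71B6*, higher in the NIL), against 0.356% of all probe sets in either direction, 0.101% higher and 0.255% lower, and this call was above 2-fold, as were 0.189%. Between the NIL and Cvi, 2 of the 15 were called (*CYP71B34* higher and *CYP71B37* lower in the NIL), against 10.8% of all probe sets in either direction, 5.23% higher and 5.61% lower. Both exceeded 2-fold, as did 3.39% of all probe sets. The 3 comparisons share arrays in pairs and are not independent of each other. In RNA from pooled tissue, fewer cells that express a gene and less RNA per cell cannot be told apart.

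**Figure D1:**
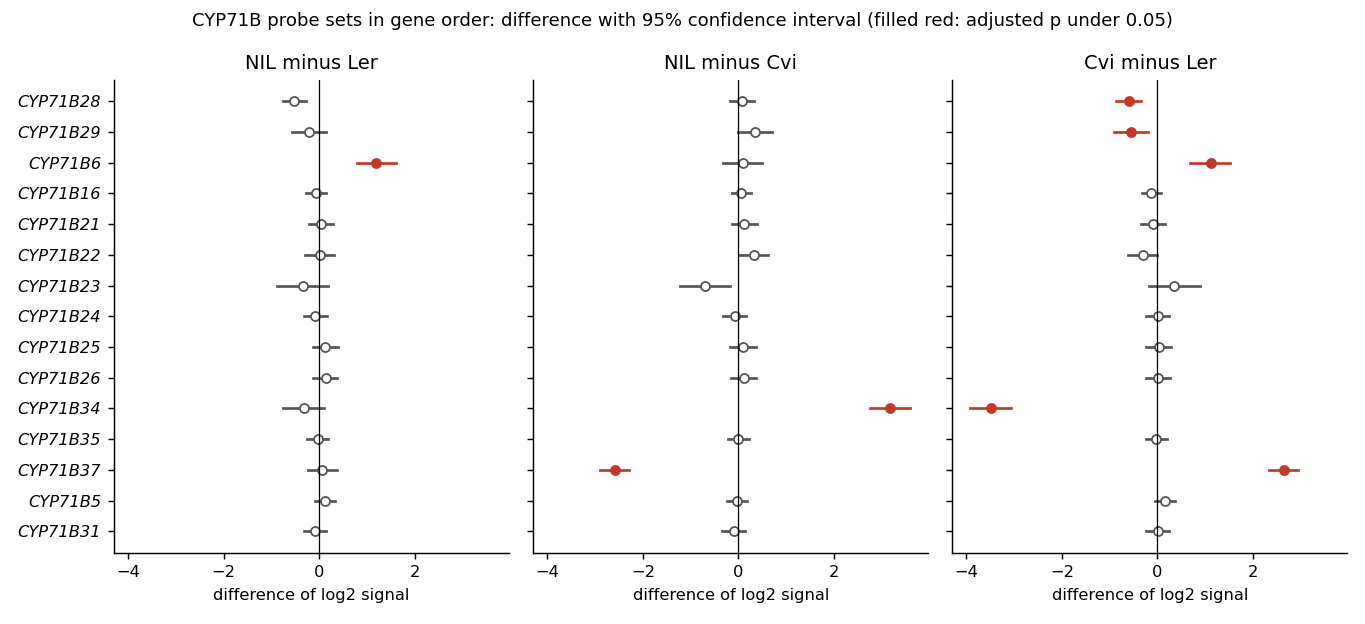
Difference of the log2 signal, with its 95% confidence interval, for the 15 CYP71B probe sets (rows, in locus order) in the NIL minus L*er*, the NIL minus Cvi and Cvi minus L*er*. Filled red points have an adjusted p under 0.05, which are 1, 2 and 5 probe sets, and the open points lie between −0.7 and 0.35.

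The largest cluster of the list lies on chromosome 3 and runs from AT3G26150 (*CYP71B16*) to AT3G26330 (*CYP71B37*). It holds 15 of the listed loci, of which 10 were measured. The pair with the largest differences among the 15 genes belongs to it, and they went in opposite directions.

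*CYP71B34* (AT3G26300) had signals of 163, 189 and 207 on the NIL arrays, 28.4, 17.6 and 17.4 on the Cvi arrays and 228, 264 and 206 on the L*er* arrays. The Cvi arrays lay far below all others, whereas those of the NIL and L*er* overlapped. Mean log2 signals with their SD over 3 arrays were 7.53 ± 0.17 for the NIL, 4.36 ± 0.41 for Cvi and 7.85 ± 0.18 for L*er*. Cvi was lower than L*er* by 11.3-fold (difference −3.49, standard error 0.19, adjusted p = 8.66e-07 from limma). The NIL was higher than Cvi by 9.01-fold (difference 3.17, standard error 0.19, adjusted p = 2.07e-06 from limma). The NIL minus L*er* difference was −0.32, with a 95% confidence interval of −0.75 to 0.1. In Cvi the signal lay below 42.3, the upper bound of the third that ranks lowest by mean signal over all arrays (the dim probe sets from here on), and the size of the fold rests on this low value. With 16 added to each signal before log2, the difference was −2.75 in Cvi minus L*er* and 2.45 in NIL minus Cvi, both still called.

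*CYP71B37* (AT3G26330) had the opposite pattern. Its signals were 25.3, 27 and 28.5 in the NIL, 185, 141 and 160 in Cvi and 28.8, 27.3 and 21.6 in L*er*. Here the Cvi arrays lay far above the rest, and the NIL and L*er* arrays, all in the range of the dim probe sets, overlapped. Mean log2 signals with their SD over 3 arrays were 4.75 ± 0.08 for the NIL, 7.33 ± 0.2 for Cvi and 4.69 ± 0.22 for L*er*. Cvi was higher than L*er* by 6.26-fold (difference 2.65, standard error 0.14, adjusted p = 6.22e-07 from limma), and the NIL was lower than Cvi by 5.99-fold (difference −2.58, standard error 0.14, adjusted p = 8.37e-07 from limma). The size of these folds rests on the low NIL and L*er* values. With 16 added to each signal before log2, the difference was 2.08 in Cvi minus L*er* and −2.05 in NIL minus Cvi, both still called. Between the NIL and L*er* the difference on the plain log2 scale was 0.06, with a 95% confidence interval of −0.24 to 0.37.

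**Figure D2:**
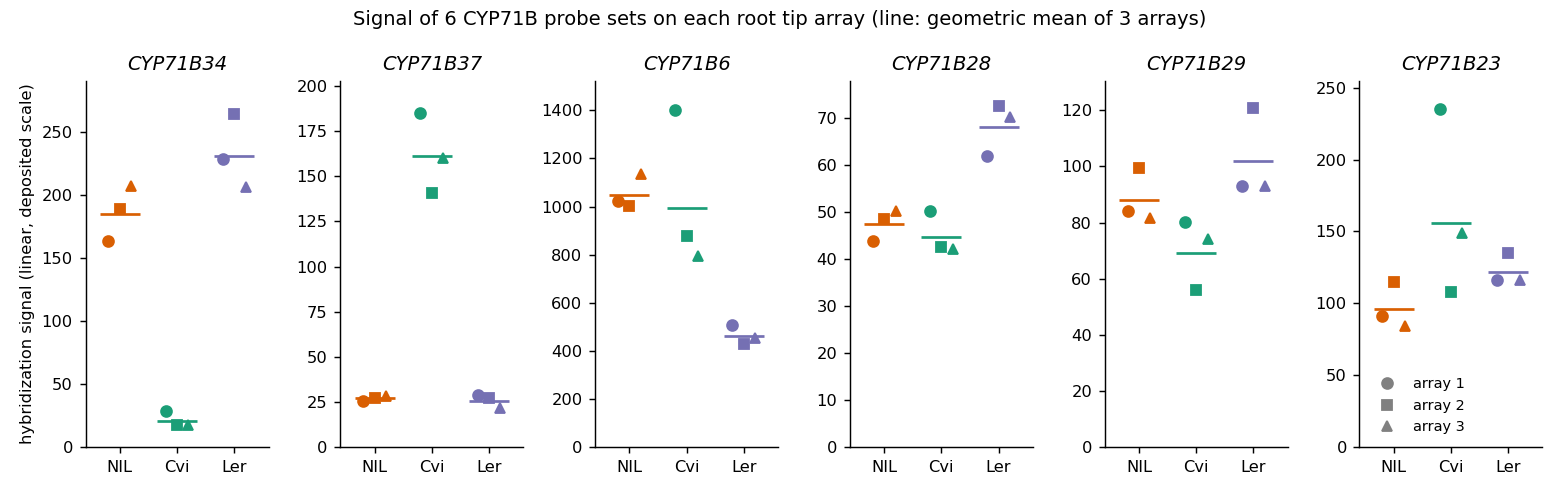
Hybridization signal (linear, each panel with its own axis from 0) of 6 CYP71B probe sets on the 3 arrays of the NIL, Cvi and L*er*, with the geometric mean of each genotype as a line. *CYP71B34* is at 17.4 to 28.4 and *CYP71B37* at 141 to 185 on the Cvi arrays alone, and *CYP71B6* is at 427 to 506 on the L*er* arrays, below all arrays of the NIL and Cvi.

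The genes beside and between this pair gave no such differences. *CYP71B35* (AT3G26310), which follows *CYP71B34* in locus order, had 11.7 to 13.7 on the 9 arrays, with a Cvi minus L*er* difference of −0.03 (95% confidence interval −0.25 to 0.19). *CYP71B36* (AT3G26320), a CYP71B gene that is not on the list and lies next to *CYP71B37*, had 10.2 to 12 on the 9 arrays and a difference of 0.01 (95% confidence interval −0.21 to 0.22). Both are dim probe sets, where a change could pass unseen. *CYP71B26* (AT3G26290), on the other side of *CYP71B34* and dim as well, had 20.9 to 27.5 and a difference of 0.01.

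Of the other measured genes of the cluster, *CYP71B16*, *CYP71B21*, *CYP71B24* and *CYP71B25* were also dim. Over the 9 arrays *CYP71B16* (AT3G26150) had 7.32 to 9, *CYP71B21* (AT3G26190) 8.23 to 10.8, *CYP71B24* (AT3G26230) 7.69 to 9.65 and *CYP71B25* (AT3G26270) 12.5 to 16.8, and their Cvi minus L*er* differences were −0.13, −0.09, 0.01 and 0.03. *CYP71B22* and *CYP71B23* had higher signals, and neither was called. Their values are given because they were the brighter uncalled members, a choice made after the values were seen. *CYP71B22* (AT3G26200) had 52.6, 49.8 and 52.4 in the NIL, 36.1, 48.4 and 40.4 in Cvi and 49.6, 60.2 and 45.4 in L*er*. The Cvi arrays were all below those of the NIL, by 0.32 on the log2 scale (NIL minus Cvi, adjusted p = 0.192 from limma), but overlapped with L*er*. *CYP71B23* (AT3G26210) had 91.3, 115 and 84 in the NIL, 235, 108 and 149 in Cvi and 116, 135 and 116 in L*er*. Its highest value was on Cvi array 1, the array that stood apart, and the NIL minus Cvi difference of −0.7 (standard error 0.24) did not pass (adjusted p = 0.1 from limma). That difference was −0.4 without Cvi replicate 1 (adjusted p = 0.107 from limma). It was −0.96 without Cvi replicate 2, the only 1 of the 17 other settings in which it was called (adjusted p = 0.0143 from limma).

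Other genes around this cluster were measured as well. Between AT3G26110 and AT3G26480 the annotation names 24 probe sets, 14 of them for genes that are not on the list. In this stretch 5 probe sets were higher and 1 was lower in Cvi than in L*er*, while 0 were called between the NIL and L*er* (adjusted p from limma). Of all probe sets, 5.75% were higher and 7.27% lower in Cvi than in L*er*, and only 0.356% were called between the NIL and L*er*, so that a count of 0 among 24 says little. Besides *CYP71B37*, the higher ones were AT3G26130 at 1.66, AT3G26450 at 0.79, AT3G26470 at 1.95 and AT3G26480 at 2.62 on the log2 scale, and *CYP71B34* was the lower one. The stretch was chosen after the values of *CYP71B34* and *CYP71B37* were known.

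**Figure D3:**
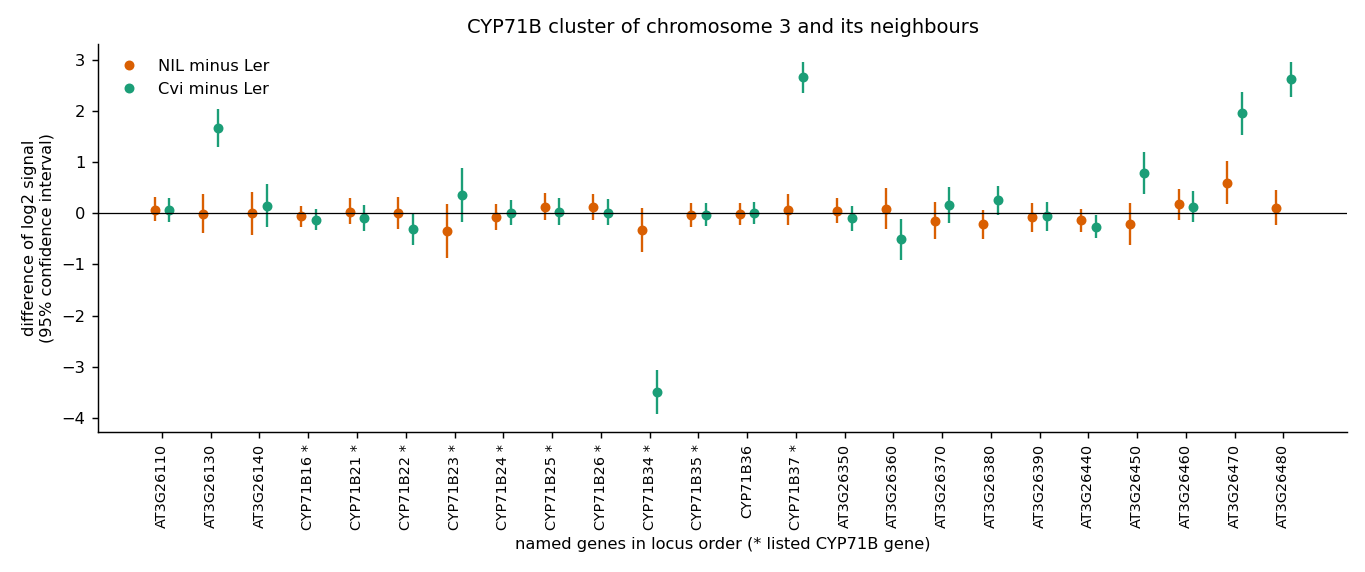
Difference of the log2 signal with its 95% confidence interval for the 24 named probe sets from AT3G26110 to AT3G26480 in locus order, NIL minus L*er* in orange and Cvi minus L*er* in green, with listed CYP71B genes marked by an asterisk. In Cvi minus L*er*, *CYP71B34* is at −3.49 and *CYP71B37* at 2.65, and the other CYP71B genes, most of them dim, lie between −0.31 and 0.35. AT3G26480, which is not on the list, is at 2.62. NIL minus L*er* lies between −0.35 and 0.59 throughout.

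*CYP71B6* (AT2G24180), which stands alone on chromosome 2, was the 1 member called between the NIL and L*er*. Its signals were 1024, 1003 and 1137 in the NIL, 1401, 879 and 794 in Cvi and 506, 427 and 455 in L*er*. All arrays of the NIL and of Cvi lay above the L*er* arrays, and the NIL arrays lay within the range of Cvi. Mean log2 signals with their SD over 3 arrays were 10.04 ± 0.1 for the NIL, 9.96 ± 0.44 for Cvi and 8.85 ± 0.12 for L*er*. The NIL was higher than L*er* by 2.28-fold (difference 1.19 with a standard error of 0.19, adjusted p = 0.0268 from limma), with a 95% confidence interval of 0.78 to 1.61 on the log2 scale. That standard error also holds the spread of the Cvi arrays, the largest of the genotypes. Cvi was higher than L*er* by 2.15-fold (difference 1.11 with a standard error of 0.19, adjusted p = 0.00278 from limma), with an interval of 0.69 to 1.52. That difference was 0.86 without Cvi replicate 1, below 2-fold and still called (adjusted p = 8.49e-05 from limma). Between the NIL and Cvi the difference was 0.09 (95% confidence interval −0.33 to 0.5, adjusted p = 0.838 from limma), and without Cvi replicate 1 it was 0.33 and was called (adjusted p = 0.0468 from limma).
The call between the NIL and L*er* was lost when any of the 6 arrays of these genotypes was left out, although the difference stayed between 1.13 and 1.26 (adjusted p up to 0.182 from limma). The call between Cvi and L*er* was kept in each of these fits. The NIL minus L*er* call was kept in the fit to the 6 arrays compared (adjusted p = 0.00016 from limma). It was also kept without Cvi replicate 1 (adjusted p = 2.57e-05 from limma).

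Among the 10 nearest named genes on each side of *CYP71B6*, from AT2G24000 to AT2G24320, 0 were called between the NIL and L*er* in limma. Their differences were −0.54 to 0.38. Only 0.356% of all probe sets were called in this comparison, so that a count of 0 among 20 says little. Between Cvi and L*er*, AT2G24280 was higher at 0.47 and AT2G24240 was lower at −0.68 in Cvi, and the others were not called. For AT2G24240 the difference was −0.54 in NIL minus L*er* (adjusted p = 0.481 from limma) and 0.14 in NIL minus Cvi. For AT2G24280 these differences were −0.18 and −0.64, the latter called (adjusted p = 0.00461 from limma). The nearest neighbours, AT2G24170 and AT2G24230, had NIL minus L*er* differences of −0.02 and −0.32. *FOX1* (AT1G26380), an oxidoreductase gene of the indole carbonyl nitrile branch, is the 1 gene with a named probe set here of the 21 listed for the indolic pathway. It had 47.2, 16.2 and 12.8 in the NIL, 104, 22.1 and 16.3 in Cvi and 13.7, 15.5 and 13.5 in L*er*. The highest values were on NIL array 1 and Cvi array 1, and *FOX1* was called in none of the comparisons (adjusted p = 0.272 for Cvi minus L*er*, from limma). By mean signal (29.1) it is a dim probe set. Its log2 SD was 1.01 in the NIL and 1.44 in Cvi, against 0.11 in L*er*, so that a change could pass unseen.

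**Figure D4:**
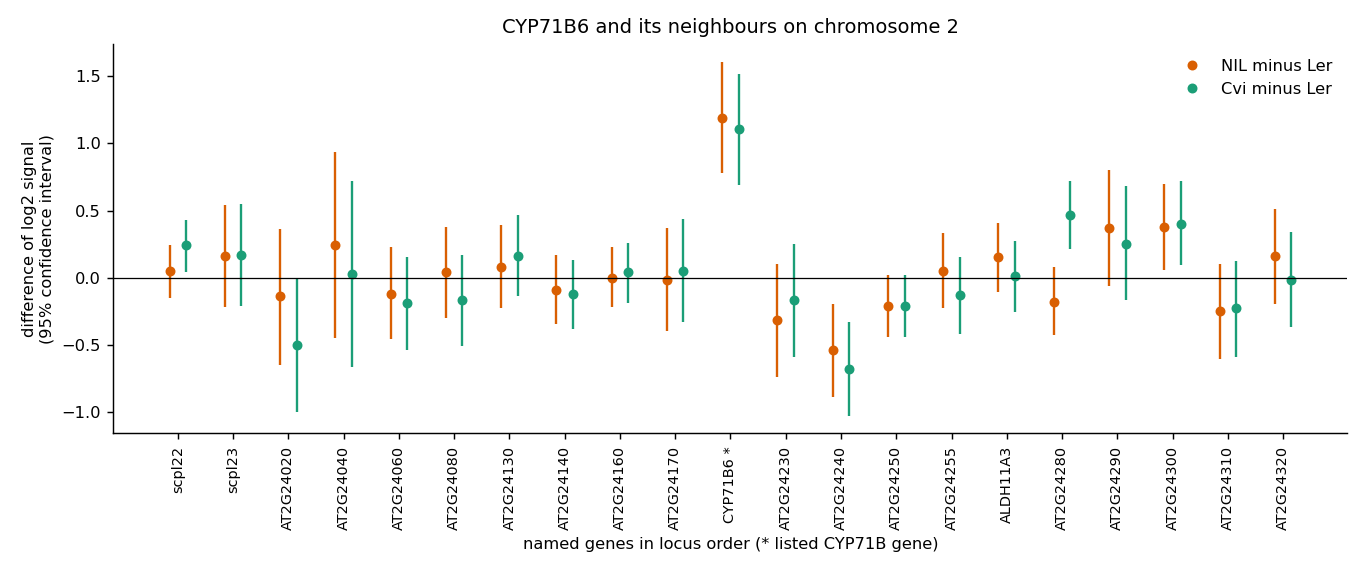
Difference of the log2 signal with its 95% confidence interval for *CYP71B6* and the 20 named genes around it in locus order, NIL minus L*er* in orange and Cvi minus L*er* in green. *CYP71B6* is at 1.19 and 1.11, and the neighbours lie between −0.54 and 0.38 in the NIL.

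On chromosome 1, 2 of the 3 listed genes of a tandem cluster were measured, *CYP71B28* (AT1G13090) and *CYP71B29* (AT1G13100), and both were lower in Cvi than in L*er* by less than 2-fold. *CYP71B28* had 43.8, 48.6 and 50.2 in the NIL, 50.2, 42.6 and 42.2 in Cvi and 62, 72.7 and 70.2 in L*er*. The L*er* arrays were above all 6 others, and those of the NIL and Cvi overlapped. Cvi was lower than L*er* by 1.52-fold (difference −0.6, standard error 0.11, adjusted p = 0.00523 from limma).
The NIL minus L*er* difference of *CYP71B28* was −0.52 (standard error 0.11, 95% confidence interval −0.77 to −0.27), which did not pass over all probe sets (adjusted p = 0.145 from limma). With the deviating Cvi replicate 1 left out it was called (adjusted p = 0.0145 from limma), at the same difference. Its arrays did not overlap between the NIL and L*er*, as was the case at 13.6% of all probe sets.

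*CYP71B29* had 84.2, 99.3 and 81.6 in the NIL, 80.1, 55.9 and 74.2 in Cvi and 93.2, 121 and 93.1 in L*er*. The Cvi arrays were below all others, and those of the NIL and L*er* overlapped. Cvi was lower than L*er* by 1.47-fold (difference −0.55, standard error 0.16, adjusted p = 0.0475 from limma), close to the threshold, and the call was lost in 14 of 17 other settings (adjusted p up to 0.165 from limma). *CYP71B27* (AT1G13070), a neighbour that is not on the list, had 17.2 to 22.1 on the 9 arrays and a Cvi minus L*er* difference of −0.04.

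The third measured cluster, also on chromosome 3, gave low and even signals. *CYP71B5* (AT3G53280) had 8.89 to 10.8 and *CYP71B31* (AT3G53300), an enzyme gene of linalool metabolism in flowers, 8.31 to 10.2 over the 9 arrays. The Cvi minus L*er* differences were 0.15 and 0.01, and neither gene was called in any comparison. *CYP71B30P* (AT3G53290), which lies between them and is not on the list, had 10.2 to 12.1.

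Over the 15 genes, 8 were dim, with signals of 7.32 to 27.5, and the highest array was only 1.17 to 1.34 times the lowest in each of them. None of these 8 was called in any comparison by limma. At this signal a difference may not be detectable, and no detection call was used. The other 7 had a mean signal over all arrays above this bound, *CYP71B37* through its Cvi arrays alone, so that the split is not independent of the differences. The 10 genes not called between Cvi and L*er* had differences of −0.31 to 0.35, and the widest of their 95% confidence intervals reached −0.62 and 0.88. For each call the arrays compared did not overlap, and exact two-sided permutation tests gave p = 0.1, the smallest p that 3 arrays against 3 allow. Arrays did not overlap for 4 of the 15 genes between the NIL and L*er* (13.6% of all probe sets), for 5 between the NIL and Cvi (26.5%) and for 5 between Cvi and L*er* (27.2%), calls included.

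Of the P450 genes outside CYP71A and CYP71B, 5 were found by a gene symbol of CYP and a number, each with a probe set of its own. The annotation names no gene for 8730 probe sets, so that other P450 genes on the array may be missed. *CYP51G2*, of the sterol demethylase family, was lower in Cvi than in L*er* (difference −1.71, standard error 0.12, adjusted p = 6.72e-06 from limma), and the NIL was above Cvi by 1.94. *CYP718*, *CYP78A9*, *CYP84A4* and *CYP79A2*, which makes phenylacetaldoxime from phenylalanine, were called in no comparison. The 4 CYP71B loci that are not on the list were also not called, with Cvi minus L*er* differences of −0.08 to 0.09. All of them have dim probe sets, where a change could pass unseen. The probes of the array were designed on another accession, and whether bases under the probes differ in Cvi, L*er* or the NIL was not tested.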

How the data were processed

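Per the labels, RNA of pooled root tips was hybridized to Affymetrix ATH1 arrays, 3 per genotype. The deposited values are linear signal intensities, 1 per probe set and array, that already had close medians. MAS5 and RMA are named in the submitters' processing notes, but the sources used here do not state which of these the authors applied. Of 22810 probe sets, 64 controls were left out of the tests. Gene names came from the annotation of the platform and from the TAIR10.1 gene table, which was used for names and gene order only. The annotation gives 1 gene for 13513 probe sets, several for 503 and none for 8730.

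Linear models with a mean per genotype were fitted to the log2 signal of 9 arrays (lmFit, then eBayes, in limma 3.58.1 under R 4.3.3), and p-values were adjusted over 22746 probe sets. The fit was run on simulated data with normal noise of equal spread in all genotypes. Such noise does not cover a deviating array like Cvi array 1. The members, gene lists and clusters were chosen with earlier results of these data known. By rule, members called in at least 1 comparison are given array by array, as would be *CYP71A12*, *CYP71A13*, *CYP71A16*, *CYP71B15* and *CYP71B6* for their known roles, of which *CYP71B6* alone was measured. Stretches of neighbours were chosen after values were seen. Of the lists for the marneral and thalianol clusters, P450 electron donors, root cap, root meristem, endodermis, vasculature, root uptake and shoot photosynthesis, 0 genes are named in the annotation used here. Other settings were a pseudocount of 16 before log2, a block for the replicate number, quantile normalization, robust eBayes with trend, fits to only the 6 arrays compared, dropping the dim probe sets, other call rules and dropping each array. The number of arrays limits the precision. No sequence of a gene, protein or probe was used here.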

Additional observations from a re-analysis of the deposited data

How the results depend on the processing

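The differences of *CYP71B34* and *CYP71B37* in Cvi minus L*er* and NIL minus Cvi, and that of *CYP71B6* in Cvi minus L*er*, kept their direction and their call in all 17 other settings. *CYP71B34* ranged from −3.73 to −2.75 in Cvi minus L*er* and from 2.45 to 3.41 in NIL minus Cvi, with the value nearest 0 each time at a signal plus 16. *CYP71B37* ranged from 2.08 to 2.74 and from −2.68 to −2.05 in these comparisons, with the value nearest 0 at the same setting. *CYP71B6* ranged from 0.86 to 1.27 in Cvi minus L*er*, lowest without Cvi replicate 1. Without 1 array each, the genes called higher numbered 0 to 1 in NIL minus L*er*, 1 to 2 in NIL minus Cvi and 2 to 2 in Cvi minus L*er*, and those called lower 0 to 1, 1 to 2 and 2 to 3. *CYP71B6* in NIL minus Cvi, called only without Cvi replicate 1 (0.33), was −0.0022 without Cvi replicate 2 and −0.076 without Cvi replicate 3. With log2 of the signal plus 16, 0 genes were higher in NIL minus L*er* (*CYP71B6* at 1.16, adjusted p = 0.0713 from limma). With the 6 arrays compared, 1 gene was lower (*CYP71B28*, adjusted p = 0.0332 from limma). Requiring a fold of at least 2, with an adjusted p or with a 95% confidence interval alone, left 1 gene lower in Cvi minus L*er*.

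The labels give replicate numbers but no shared batch, and deviations of same-numbered arrays correlated at −0.2592 to 0.2317, with Cvi array 1 closest to L*er* array 2 (0.2814). With the replicate number as a block, *CYP71B29* at −0.55 was no longer called in Cvi minus L*er* (adjusted p = 0.0907 from limma) and no other call on a CYP71B gene changed, while 2520 probe sets were called in this comparison, against 2960. Over all probe sets, leaving out 1 array gave 30 to 266 calls in NIL minus L*er* (81 with all arrays), 1560 to 4028 in NIL minus Cvi (2465) and 1832 to 5396 in Cvi minus L*er* (2960), highest each time without Cvi replicate 1. The fit to the 6 arrays compared gave 223, 1529 and 1944. The signal over background is unknown for every probe set.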
